A study of Mus musculus with 30 samples.

Results

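The 9 genes described here encode parts of the phagocyte NADPH oxidase (Cybb, Cyba, Ncf1, Ncf4 and Rac2) and proteins that move iron or release it from haem (Slc11a1, Slc40a1, Tfrc and Hmox1). They were chosen by symbol from the count table of all libraries, in which 54146 genes are listed and 29004 had at least 1 count. All 9 had a row, and all 9 passed the filter on low counts in every comparison.

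The phagocyte oxidase transfers electrons from NADPH to oxygen and makes superoxide inside the phagosome. Its membrane core is the heterodimer of Cybb (gp91phox) and Cyba (p22phox), and the complex becomes active when cytosolic subunits, among them Ncf1 (p47phox) and Ncf4 (p40phox), and the GTPase Rac2 join it. Macrophages also take up iron through the transferrin receptor Tfrc, free it from haem with haem oxygenase 1 (Hmox1), pump divalent metals out of the phagosome with Slc11a1 (Nramp1) and export iron from the cell through ferroportin (Slc40a1).

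The libraries came from J774 cells, a mouse macrophage-like line, grown as 3 wild-type (WT) clones (WT1, WT2, WT3) and 2 knockout (KO) clones (KO1, KO2) that lack B2_Mm2.Dicer1, a B2 transposable element within an intron of Dicer1. Each clone was left untreated (UT) or was given 100 ng/mL of mouse interferon gamma (IFNG) for 4 h, with 3 libraries of polyadenylated RNA per clone and treatment and 30 libraries in all. The study asked whether loss of the element changes the response to this cytokine, and the sections below give the level of each gene, its IFNG response in each clone and the contrast of KO and WT clones. KO clones had passed through Cas9 editing by electroporation, whereas WT clones were only expanded from single cells, so genotype and editing procedure cannot be told apart, and each clone descends from 1 cell. The labels do not say that the 3 libraries of a clone were separate cultures, so p-values within a clone measure the spread between libraries, which may be technical.

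Counted fragments ranged from 15566122 to 37992642 per library (median 23682133.5), and the members had between 861 (Hmox1) and 22643 (Tfrc) fragments in a library. All 9 macrophage markers examined, Csf1r and Itgam among them, reached a mean of 1 CPM (counts scaled to library size), with a summed level of 4282 to 6789 CPM over the clone and treatment groups, against 0.0488 to 0.127 CPM for 4 B cell markers and at most 2.84 CPM for 5 neutrophil markers. The IFNG checks answered in every clone. Irf1, an early interferon target, was at 16.7 to 26.2 CPM in untreated libraries and at 698 to 960 CPM after IFNG. Dicer1 was at 70.5 to 73.0 CPM in untreated KO1, 101 to 108.5 CPM in untreated KO2 and 96.8 to 130 CPM in untreated WT libraries, but the counts are over exons and do not show the intronic deletion itself.

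The stretches upstream of 3 oxidase genes are shown because their windows were found and they differ in how many interferon-type motifs they hold. No relation between motif number and IFNG response was tested. RefSeq promoter windows (GRCm38.p6, 300 bases) were found for 5 of the 9 members, namely Cybb, Cyba, Ncf1, Slc11a1 and Tfrc (with 2 start sites). The 250 bases before the start are printed 5′ to 3′ on the gene's own strand, here the minus strand for all 3, and capitals mark matches to a searched motif. They lie at chrX:9469325-9469574 (Cybb, whose start in RefSeq falls inside the gene's span in the counting annotation), chr8:122432941-122433190 (Cyba) and chr5:134229626-134229875 (Ncf1).
Cybb: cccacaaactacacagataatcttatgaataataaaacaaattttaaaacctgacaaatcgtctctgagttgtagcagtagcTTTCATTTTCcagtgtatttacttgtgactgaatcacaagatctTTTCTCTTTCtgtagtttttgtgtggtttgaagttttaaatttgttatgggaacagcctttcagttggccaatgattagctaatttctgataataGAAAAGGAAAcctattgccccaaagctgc
Cyba: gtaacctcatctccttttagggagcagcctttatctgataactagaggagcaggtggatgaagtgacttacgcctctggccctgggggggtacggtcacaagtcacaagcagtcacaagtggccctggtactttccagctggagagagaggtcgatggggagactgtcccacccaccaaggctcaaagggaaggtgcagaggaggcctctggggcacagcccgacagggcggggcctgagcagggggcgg
Ncf1: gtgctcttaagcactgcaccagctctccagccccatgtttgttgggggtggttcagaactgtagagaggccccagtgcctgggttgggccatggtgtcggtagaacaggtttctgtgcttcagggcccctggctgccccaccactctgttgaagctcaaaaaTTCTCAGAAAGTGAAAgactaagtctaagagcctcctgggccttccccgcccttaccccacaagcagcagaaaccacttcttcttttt

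The motifs searched, on both strands, were an interferon-response motif (GAAA, any 2 bases and GAAA again), the GAS motif TTCNNNGAA, the PU.1 motif GAGGAAG and the antioxidant response motif TGACNNNGC. The Cybb window held 3 interferon-response matches, starting 168, 124 and 29 bases before the start site. The Ncf1 window held a GAS match starting 88 bases before the start, which overlaps an interferon-response match starting 82 bases before it. No searched motif was found in the windows of Cyba, Slc11a1 or Tfrc. Over 32851 promoter windows of the same length, 3.44% held the interferon-response motif, 8.3% GAS, 13.6% PU.1 and 12.4% the antioxidant response motif. A match describes letters in the window and is not a measured binding site.

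**Figure D1:**
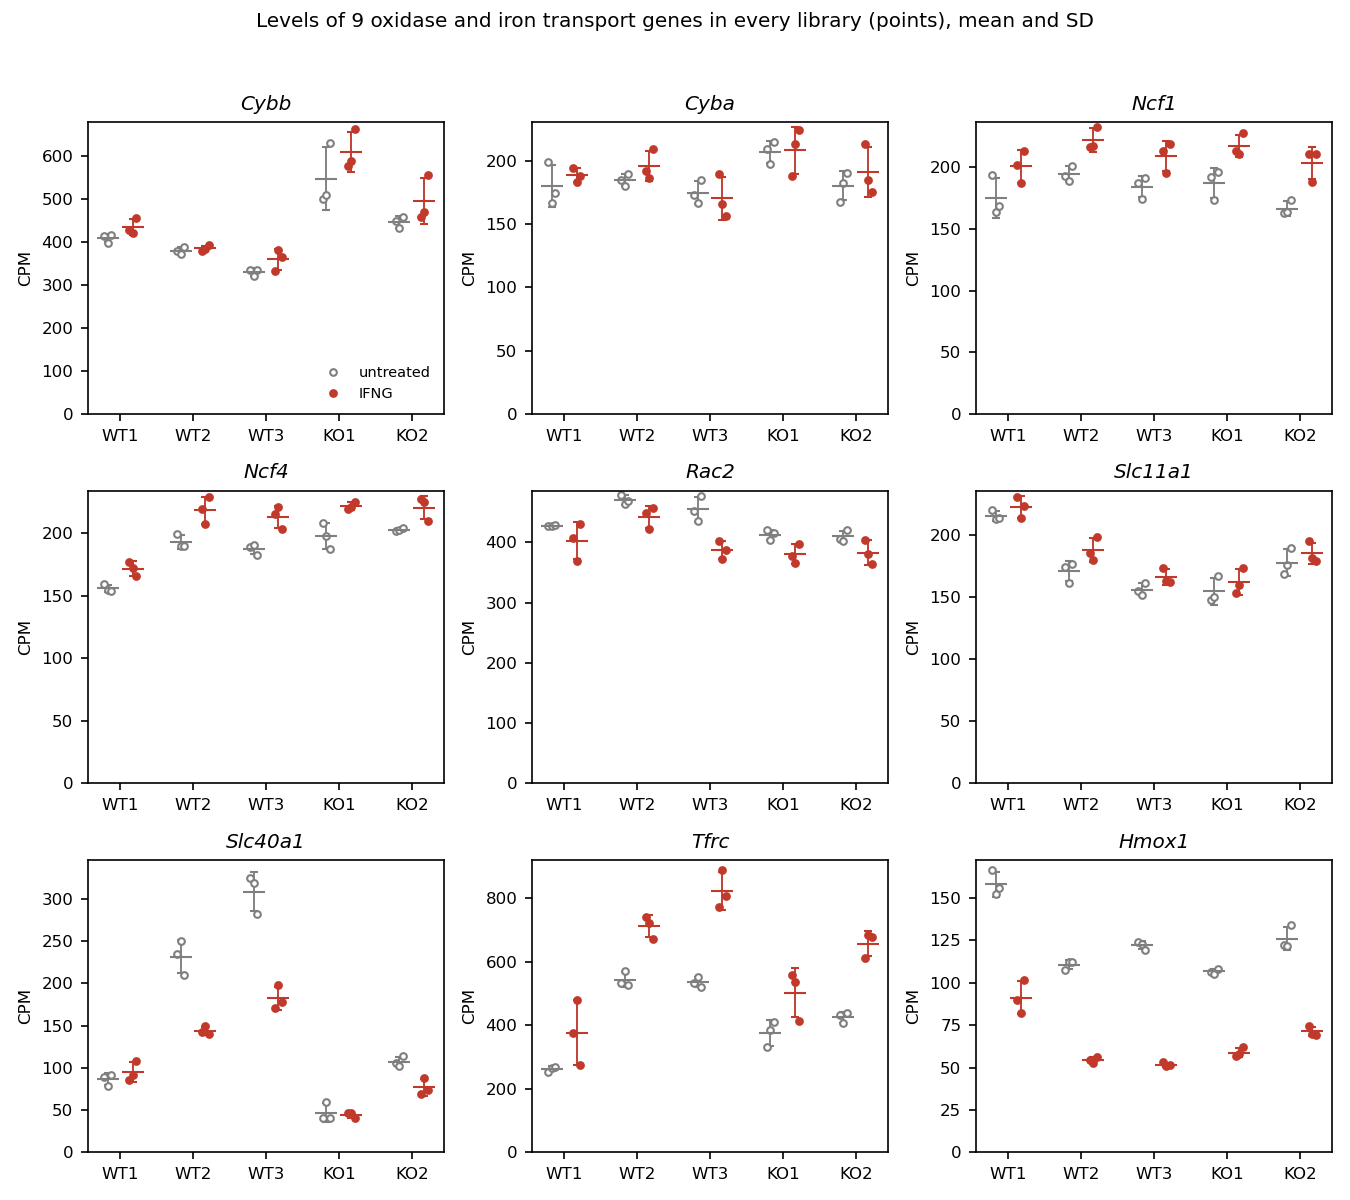
Level of each gene in CPM (y axis, from 0) in every library (points) of the 5 clones (x axis), with the mean and SD of the 3 libraries per clone and treatment, untreated in grey and IFNG in red. Hmox1 is lower and Tfrc higher after IFNG in every clone, whereas the untreated Slc40a1 level runs from 40.6 to 324 CPM over the libraries.

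Per kilobase of exon, Cyba was the most abundant oxidase member, at a mean of 168 to 199 CPM per kb over the untreated clones, followed by Rac2 at 132 to 152. Ncf4 was at 77.2 to 100 and Cybb at 57.0 to 94.3 CPM per kb. Ncf1 was lower, at 45.3 to 52.9 CPM per kb. Among the iron genes, untreated Hmox1 was at 60.9 to 90.3, Tfrc at 42.5 to 87.8, Slc11a1 at 41.8 to 58.3 and Slc40a1 at 5.25 to 34.3 CPM per kb. The ferritin chains that store iron, Fth1 and Ftl1, were far above these, at 2197 to 3459 and 2794 to 3089 CPM per kb. All 5 oxidase members were thus transcribed in untreated cells of every clone, and Slc40a1 was the least abundant of the 9 genes per kilobase in each of the 5 clones. These ranks depend on the annotated exon length, 9000 bases for Slc40a1 and 1039 for Cyba, which may differ from the transcripts present. By CPM, Slc40a1 was at 308 and Hmox1 at 122 in untreated WT3, but at 47.2 and 107 in untreated KO1.

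IFNG lowered Hmox1 in all 5 clones and raised Tfrc in all 5, and the largest change of an oxidase member was 0.29 on the log2 scale (Ncf1 in KO2). Tested with edgeR's quasi-likelihood test and Benjamini-Hochberg adjustment over all genes, with 3 against 3 libraries, 2 of the 9 genes passed an adjusted p of 0.05 in WT1, 6 in WT2, 7 in WT3, 4 in KO1 and 4 in KO2. The same threshold was passed by 21.2% of all tested genes in WT1, 34.5% in WT2, 36.1% in WT3, 29.4% in KO1 and 27.1% in KO2. The median log2FC of the 9 genes ran from 0.077 (WT1) to 0.11 (WT3), against -0.0083 to 0.0019 over all genes tested.

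**Figure D2:**
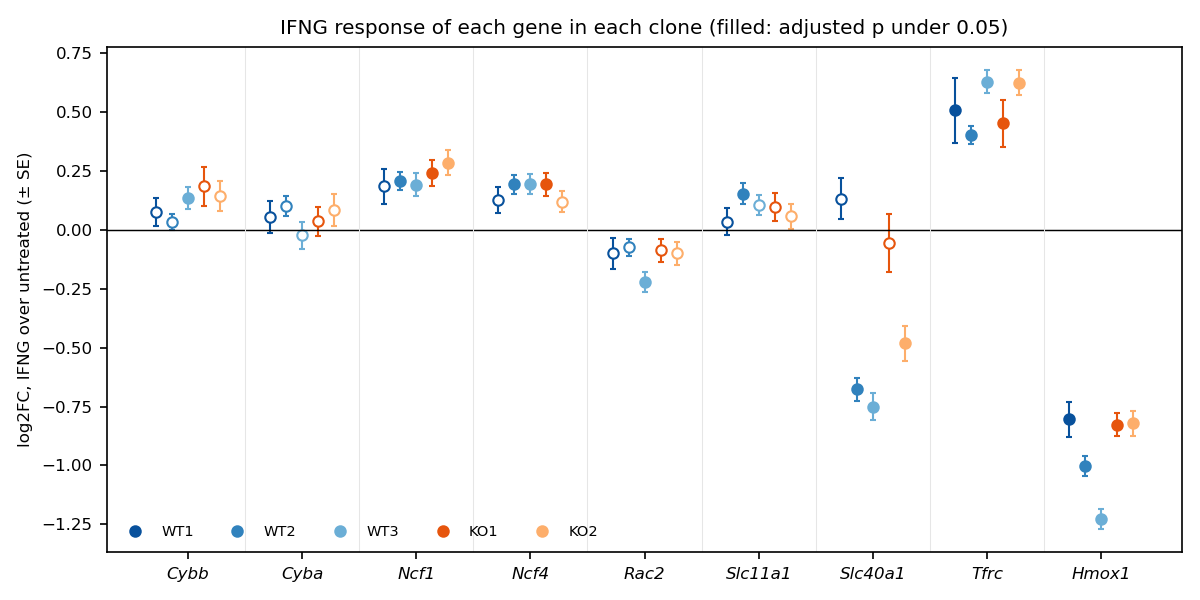
log2FC of IFNG over untreated libraries with its SE (y axis) for each of the 9 genes (x axis) in each clone, 3 against 3 libraries. Filled points have an adjusted p under 0.05 (edgeR): all 5 for Tfrc, from 0.40 to 0.63, and all 5 for Hmox1, from -1.23 to -0.80, but 3 of 5 for Slc40a1.

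Hmox1, the enzyme that opens the haem ring and releases its iron, had the largest response among the members in every clone. In WT1 its untreated level was 166.5, 152 and 156 CPM and its IFNG level 90.0, 82.1 and 101 CPM. In WT2 the untreated libraries had 108, 112 and 112 CPM and the IFNG libraries 54.7, 52.9 and 56.5 CPM. In WT3 the values were 124, 123 and 119.5 CPM untreated and 53.1, 50.9 and 51.3 CPM after IFNG. All 3 WT clones therefore had their IFNG libraries below their untreated ones, with WT1 above the other WT clones in both treatments. In KO1 the untreated libraries had 106.5, 105 and 108 CPM and the IFNG libraries 56.7, 57.7 and 62.2 CPM. In KO2 they had 122, 122 and 134 CPM untreated and 74.5, 70.0 and 69.4 CPM after IFNG. No clone had overlapping groups, in the direction in which 16.3% (WT1), 24.4% (WT2), 24.2% (WT3), 24.3% (KO1) and 20.4% (KO2) of all tested genes had none.

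The log2FC of Hmox1 was -0.80 ± 0.075 (SE) in WT1, -1.002 ± 0.042 in WT2, -1.23 ± 0.044 in WT3, -0.83 ± 0.049 in KO1 and -0.82 ± 0.052 in KO2, with edgeR adjusted p-values from 5.11e-14 (WT2) to 1.78e-06 (WT1). The response differed among the 5 clones in a test of clone by treatment over all 30 libraries (edgeR adjusted p = 0.000961). In that test 3.68% of all genes had an adjusted p under 0.05. The fall in WT3 was the largest of the 5, and without WT3 the test gave an adjusted p of 0.600. It did not pass when the KO clones were set against the WT clones as groups (difference in log2FC 0.17 ± 0.070, adjusted p = 0.391), and 1.02% of all genes did.

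Tfrc, which brings transferrin-bound iron into the cell, rose by 0.51 ± 0.14 in WT1, 0.40 ± 0.038 in WT2, 0.63 ± 0.049 in WT3, 0.45 ± 0.099 in KO1 and 0.63 ± 0.053 in KO2 on the log2 scale (edgeR adjusted p from 6.82e-09 in WT3 to 0.0165 in WT1). The untreated WT1 libraries had 254, 264 and 270 CPM and the IFNG libraries 374, 480 and 276 CPM. The IFNG libraries of WT1 thus had an SD of 102 CPM, the largest of the 10 clone and treatment groups, although the lowest of them still lay above the untreated ones. In WT2 the values were 532, 570 and 527 CPM untreated and 739, 722 and 672 CPM after IFNG. In WT3 they were 532, 552 and 520 CPM against 773, 888 and 805 CPM. KO1 went from 330.5, 384 and 409 CPM to 559, 536 and 413 CPM, and KO2 from 432.5, 406 and 437 CPM to 610.5, 684 and 676 CPM. In all 5 clones every IFNG library was above every untreated one, which 18% (WT1), 20.1% (WT2), 22.5% (WT3), 18.7% (KO1) and 20.2% (KO2) of all tested genes showed. The WT1 call is the least firm. Without the IFNG library at 480 CPM the WT1 log2FC was 0.29 (adjusted p = 0.0742), and without the one at 276 CPM it was 0.70 (adjusted p = 4.95e-06). DESeq2 gave WT1 an adjusted p of 0.126.

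Slc40a1, the iron exporter, fell after IFNG in WT2, WT3 and KO2. In WT2 it went from 235, 250 and 210.5 CPM untreated to 142.5, 149 and 140 CPM (log2FC -0.68 ± 0.049, edgeR adjusted p = 3.86e-10). In WT3 it went from 324, 319 and 282 CPM to 171, 198 and 178 CPM (log2FC -0.75 ± 0.058, adjusted p = 6.62e-09). In KO2 it went from 106, 103 and 114 CPM to 69.5, 88.3 and 73.4 CPM (log2FC -0.48 ± 0.075, adjusted p = 0.000153). Groups did not overlap in these 3 clones, in a direction that 24.4% (WT2), 24.2% (WT3) and 20.4% (KO2) of all tested genes showed. WT1 and KO1 did not pass. WT1 had 89.0, 78.4 and 91.8 CPM untreated and 86.0, 91.6 and 108 CPM after IFNG (log2FC 0.13 ± 0.087, adjusted p = 0.348). KO1 had 41.0, 60.0 and 40.6 CPM untreated and 46.8, 46.2 and 40.6 CPM after IFNG (log2FC -0.05 ± 0.12, adjusted p = 0.797). Without the untreated KO1 library at 60.0 CPM the KO1 log2FC was 0.16 (adjusted p = 0.172). The difference among clones itself passed (clone by treatment over 30 libraries, edgeR adjusted p = 0.000157). The clones that did not pass were a WT and a KO clone, and the test of the Slc40a1 response in KO against WT clones as groups did not pass (difference in log2FC 0.15 ± 0.16, adjusted p = 0.865). The pooled tests, in which libraries of the clones are mixed, did not pass in WT (log2FC -0.56 ± 0.27, adjusted p = 0.146) or KO (log2FC -0.34 ± 0.28, adjusted p = 0.424). With clone as a block they gave -0.44 in WT (adjusted p = 0.000313) and -0.29 in KO (adjusted p = 0.0211).

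Slc11a1, the phagosomal metal transporter, had a log2FC of 0.15 ± 0.043 in WT2 (edgeR adjusted p = 0.00787), the only clone in which it passed. In WT2 its untreated libraries were at 175, 162 and 176.5 CPM and its IFNG libraries at 186, 180 and 199 CPM. The log2FC was 0.034 to 0.11 in the other 4 clones. Without the untreated WT2 library at 162 CPM the value was 0.11 (adjusted p = 0.0742). Of the 13 settings run for WT2, the main fit included, 11 kept the call.

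Among the oxidase genes, the 2 cytosolic subunits rose in the most clones. Ncf1, the organiser subunit, rose in WT2 (log2FC 0.21 ± 0.039), WT3 (0.19 ± 0.048), KO1 (0.24 ± 0.055) and KO2 (0.29 ± 0.052), with edgeR adjusted p-values from 0.000185 to 0.00373. In WT1 its log2FC was 0.19 ± 0.074 (adjusted p = 0.0993), and 1 untreated library at 193 CPM lay among the IFNG libraries at 201, 187 and 213 CPM. The largest of the Ncf1 changes was that of KO2, from 162, 163 and 173 CPM untreated to 210.1, 188 and 210.3 CPM. Ncf1 shares 408 exon bases, 11.1% of its exon length, with Gtf2ird2 on the opposite strand, which the stranded counting separates.

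Ncf4, whose product binds phosphoinositides on the phagosome, rose in WT2 (log2FC 0.19 ± 0.040, edgeR adjusted p = 0.000517), WT3 (0.20 ± 0.042, adjusted p = 0.00117) and KO1 (0.19 ± 0.048, adjusted p = 0.00693). In WT1 (0.13 ± 0.057, adjusted p = 0.143) and KO2 (0.12 ± 0.045, adjusted p = 0.0641) it did not pass. Every IFNG library was above every untreated one in all 5 clones, which 18% (WT1) to 22.5% (WT3) of all tested genes showed within a clone. In KO1, for example, untreated libraries were at 208, 198 and 187 CPM and IFNG libraries at 219, 221 and 225 CPM.

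The remaining oxidase members moved little. Rac2, the GTPase that switches the complex on in blood cells, fell in WT3 from 452, 435 and 476 CPM to 402, 372 and 387 CPM (log2FC -0.22 ± 0.043, edgeR adjusted p = 0.000402) and had a log2FC of -0.099 to -0.074 in the other clones, none of which passed. Cybb, the catalytic subunit, passed in WT3 alone (log2FC 0.14 ± 0.047, adjusted p = 0.0295), where untreated libraries had 335, 321 and 337 CPM and IFNG libraries 335, 382 and 367 CPM, so that the groups overlapped. In 5 of the 6 tests that left out 1 WT3 library the adjusted p was between 0.0529 and 0.173. In KO1 Cybb had a log2FC of 0.19 ± 0.083 (adjusted p = 0.117), and without the untreated KO1 library at 632 CPM it had 0.30 (adjusted p = 0.00382). Cyba, its membrane partner, passed in no clone (log2FC -0.023 to 0.10, edgeR adjusted p from 0.0656 to 0.799).

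With the WT clones pooled (9 against 9 libraries), 3 of the 9 genes passed, Ncf1 upward and Rac2 and Hmox1 downward, where 28.6% of all genes did. With the KO clones pooled (6 against 6 libraries), 5 passed, Ncf1, Ncf4 and Tfrc upward and Rac2 and Hmox1 downward, where 30.7% of all genes did. Tfrc in pooled WT had a log2FC of 0.52 ± 0.23 (edgeR adjusted p = 0.0979), with the untreated WT1 libraries far below those of WT2 and WT3. With clone as a block, the pooled WT test was passed by 8 of the 9 genes, Tfrc included (log2FC 0.52, adjusted p = 2.56e-07), and by 6190 genes in all in place of 3840. None of the 9 genes passed the test of whether the IFNG response differed between KO and WT clones (adjusted p from 0.391 for Hmox1 to 0.993 for Cyba). Without WT1, Slc40a1 (difference in log2FC 0.43, edgeR adjusted p = 0.0244) and Hmox1 (0.30, adjusted p = 0.000464) passed that test. The test counts the libraries of a clone as independent.

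Levels differed among clones more than between treatments for some of these genes. In untreated cells the 9 genes all passed the test of any difference among the 5 clones, as did 73.2% of all genes, and after IFNG 8 passed, with Ncf1 the exception, against 69.3% of all genes. Slc40a1 had the widest spread, a 6.53-fold range of clone means in untreated cells (47.2 CPM in KO1 to 308 CPM in WT3) and a 4.09-fold range after IFNG (44.6 to 182 CPM). Its untreated order was KO1, WT1, KO2, WT2 and WT3 from low to high, and all 10 pairs of clones differed (edgeR adjusted p from 4.43e-15 for KO1 against WT3 to 0.0142 for WT1 against KO2). The narrowest of the neighbouring steps was WT1 to KO2, at 0.31 ± 0.098 on the log2 scale, so the untreated order crosses the genotypes. After IFNG the order was KO1, KO2, WT1, WT2 and WT3. There the mean of KO2 was below that of WT1, by 0.30 ± 0.087 on the log2 scale (edgeR adjusted p = 0.00917).

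Tfrc ran from 263 CPM in untreated WT1 to 543 CPM in untreated WT2, a 2.07-fold range, in the order WT1, KO1, KO2, WT3 and WT2. All neighbours in that order differed apart from WT3 and WT2 (log2FC 0.022 ± 0.057, edgeR adjusted p = 0.862). For Cybb the untreated order was WT3, WT2, WT1, KO2 and KO1 (331 to 548 CPM), with KO1 above KO2 (edgeR adjusted p = 0.00139). The steps from WT2 to WT1 (adjusted p = 0.115) and from WT1 to KO2 (adjusted p = 0.111) did not pass. Their libraries nevertheless did not overlap, at 372.5 to 390 CPM in WT2, 399 to 416 in WT1 and 433 to 459 in KO2. The SD was 8.84 CPM in WT2, 9.49 in WT1 and 13.5 in KO2, against 73.4 in KO1. Yet the SE of the steps was alike, at 0.061, 0.060 and, for KO2 to KO1, 0.060. The missing calls therefore do not show equal levels. Hmox1 was highest in WT1 (158 CPM untreated) and lowest in KO1 (107 CPM), Slc11a1 highest in WT1 (216 CPM) and lowest in KO1 (155 CPM), and Ncf4 highest in KO2 (203 CPM) and lowest in WT1 (156 CPM). Cyba, Ncf1 and Rac2 had ranges of 1.15-fold to 1.19-fold.

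Each clone was also compared with the average WT clone, itself left out of that average where it was WT. The median difference of the genes on a member's own chromosome was within -0.08 to 0.07 on the log2 scale in every clone and treatment. The members themselves differed by -1.98 (Slc40a1, untreated KO1) to 1.12 (Slc40a1, untreated WT3) on the same scale, with the median over all genes subtracted throughout. A median over many genes varies less than 1 gene, so the 2 ranges are given side by side only.

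**Figure D3:**
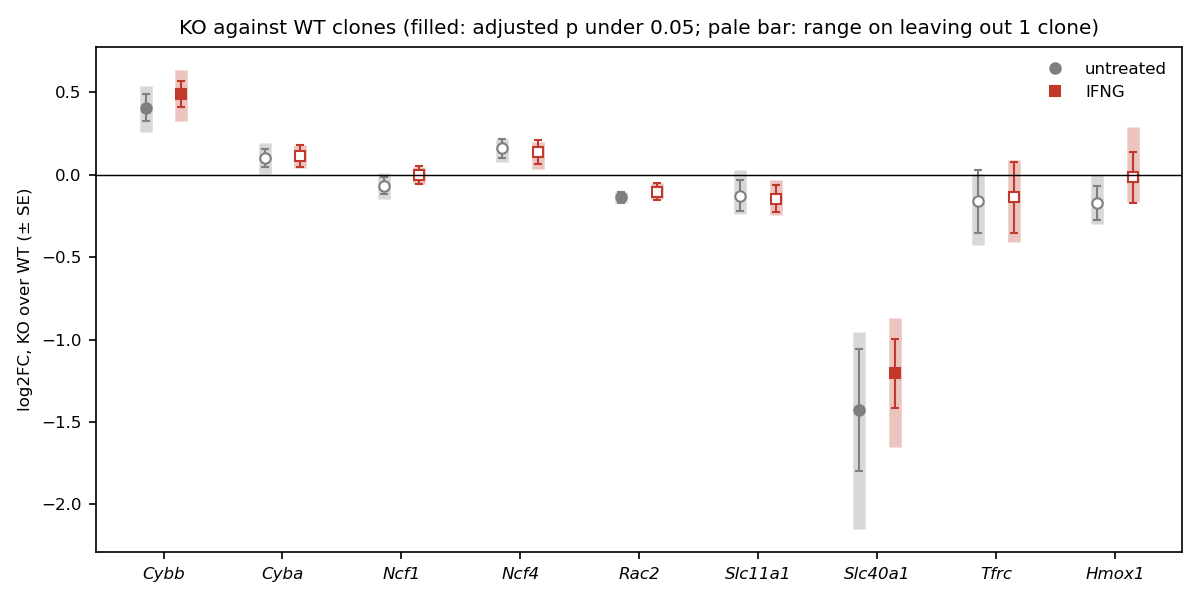
log2FC of KO over WT libraries with its SE (y axis) for the 9 genes (x axis), untreated in grey and IFNG in red, 6 KO against 9 WT libraries. Filled points have an adjusted p under 0.05 (edgeR), and the pale bar is the range over fits that leave out 1 clone. In both treatments Cybb, Cyba and Ncf4 stay above 0 and Rac2 and Slc40a1 below 0 in all of these fits.

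Over the KO libraries together, Cybb was higher and Slc40a1 lower than over the WT libraries in both treatments, and Rac2 was lower in untreated cells. Untreated Slc40a1 was nevertheless lower in WT1 than in KO2. In the tests of 6 KO against 9 WT libraries, 3 of the 9 genes passed in untreated cells and 2 after IFNG, where 26.6% and 23.9% of all genes did. Untreated Cybb was at 321 to 416 CPM in WT libraries (median 380) and at 433 to 632 CPM in KO libraries (median 480), with every KO library above every WT library, as for 4.1% of all genes (log2FC 0.41 ± 0.081, edgeR adjusted p = 0.00149). After IFNG it was at 335 to 456 CPM in WT (median 384) and 459 to 663 CPM in KO (median 567), again without overlap, as for 3.21% of all genes (log2FC 0.49 ± 0.080, adjusted p = 0.000352).

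Slc40a1 was at 78.4 to 324 CPM in untreated WT libraries (median 235) and at 40.6 to 114 CPM in untreated KO libraries (median 81.4), a log2FC of -1.43 ± 0.37 (edgeR adjusted p = 0.00913). After IFNG it was at 86.0 to 198 CPM in WT (median 142.5) and 40.6 to 88.3 CPM in KO (median 58.2), a log2FC of -1.21 ± 0.21 (adjusted p = 0.000613). The groups overlapped in both treatments, with WT1 libraries reaching into the KO range. Untreated Rac2 was at 427 to 479 CPM in WT libraries (median 452) and 403 to 420 CPM in KO libraries (median 411), without overlap in a direction that 5.1% of all genes showed (log2FC -0.14 ± 0.034, adjusted p = 0.00753). These tests count the libraries of a clone as independent. With counts summed per clone, 2 KO against 3 WT clones, none of the 9 genes passed in either treatment (adjusted p = 0.355 for Cybb and 0.447 for Slc40a1 in untreated cells, 0.320 for both after IFNG) and 1 gene of all tested did.

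Leaving out a clone moved these calls. Without KO1, untreated Cybb had a log2FC of 0.26 (adjusted p = 0.0531), Rac2 -0.14 (adjusted p = 0.0874) and Slc40a1 -0.95 (adjusted p = 0.198), so that 0 of the 9 genes passed in untreated cells. Without WT3, untreated Slc40a1 was at -1.03 (adjusted p = 0.0643), and without WT2 untreated Rac2 was at -0.11 (adjusted p = 0.0622). After IFNG, Cybb and Slc40a1 passed on leaving out any clone. Hmox1 after IFNG had a log2FC of -0.015 ± 0.16 (adjusted p = 0.958) over all clones but 0.29 (adjusted p = 0.00189) without WT1, the clone with the highest Hmox1. Cyba, Ncf1, Ncf4, Slc11a1 and Tfrc did not pass in either treatment (edgeR adjusted p from 0.0510 for untreated Ncf4 to 0.991 for Ncf1 after IFNG).

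**Figure D4:**
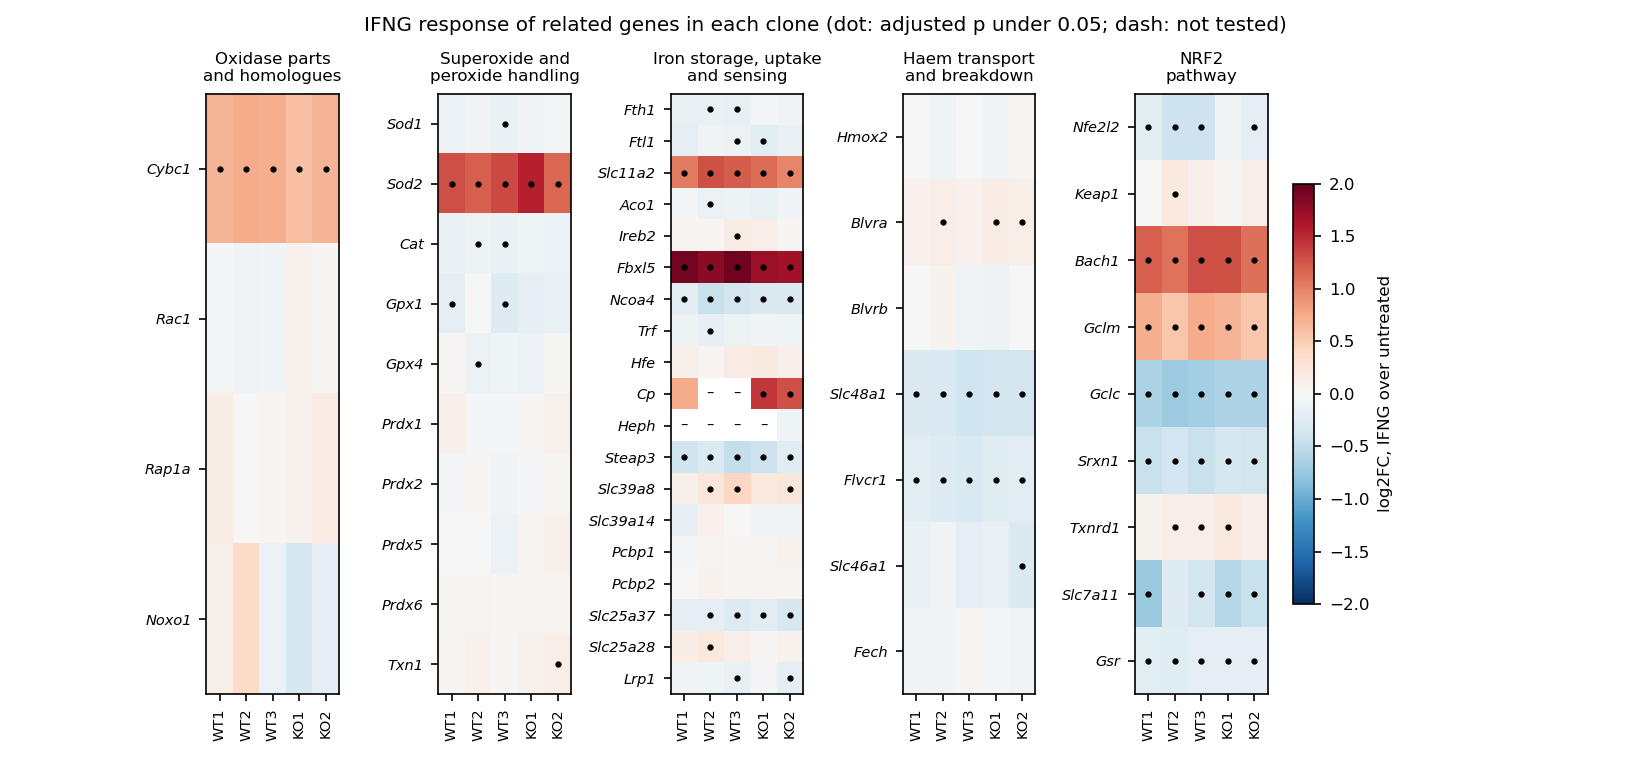
log2FC of IFNG over untreated libraries (colour, from -2 to 2) of the tested genes of 5 lists (rows) in the 5 clones (columns). A dot marks an adjusted p under 0.05 (edgeR) and a dash a gene not tested: Cybc1, Sod2, Slc11a2, Fbxl5, Bach1 and Gclm rose in all 5 clones, and Ncoa4, Steap3, Slc48a1, Flvcr1, Gclc, Srxn1 and Gsr fell in all 5.

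The genes around the members were followed as 5 lists. Of the oxidase parts and homologues, 4 of the 13 followed here passed the filter, and 1 rose and 0 fell in pooled WT (list median log2FC 0.095, all genes -0.0028), where 28.6% of all genes passed in either direction. The share for pooled WT applies to each of the 5 lists. The pooled tests mix the libraries of the clones, without clone as a block, so a gene that passed within a clone can fail in them. The riser was Cybc1, a chaperone of the gp91phox and p22phox heterodimer, at 42.8 to 48.7 CPM in untreated WT clones and 70.9 to 78.1 CPM after IFNG (log2FC 0.72 ± 0.046, edgeR adjusted p = 1.82e-10), and it rose in KO as well (0.64 ± 0.037, adjusted p = 3.9e-09). Rac1, the close relative of Rac2, had a log2FC of -0.047 in pooled WT (adjusted p = 0.656). The chaperone gene therefore moved further than any of the 5 oxidase members in each of the 5 clones. Cybc1 was lower in KO than in WT in untreated cells (log2FC -0.15 ± 0.051, edgeR adjusted p = 0.0394) and after IFNG (-0.23 ± 0.039, adjusted p = 0.000472). Both calls were lost with counts summed per clone (edgeR adjusted p = 0.574 untreated and 0.391 after IFNG). The untreated call was also lost on leaving out any clone but WT2. The test of its IFNG response by genotype did not pass (adjusted p = 0.631). Of the 4 tested genes of this list, 0 were higher and 1 lower in untreated KO than WT. After IFNG 0 were higher and 2 lower (Cybc1 and Noxo1), where 26.6% (untreated) and 23.9% (IFNG) of all genes passed.

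Of the superoxide and peroxide handling genes, 10 of 11 were tested, 1 rose and 0 fell in pooled WT (median log2FC -0.021). That gene was Sod2, the mitochondrial superoxide dismutase, at 94.4 to 101 CPM in untreated WT clones and 213 to 248 CPM after IFNG (log2FC 1.27 ± 0.049, edgeR adjusted p = 4.39e-14). Within single WT clones, Gpx1 passed as lower in WT1, Cat and Gpx4 in WT2, and Sod1, Cat and Gpx1 in WT3. Sod2 was also higher in KO than in WT, by 0.64 ± 0.060 untreated (adjusted p = 2.37e-06) and 0.76 ± 0.12 after IFNG (adjusted p = 0.000219). Its untreated level was 165 CPM in KO1 and 138 CPM in KO2. With counts summed per clone the Sod2 call was lost in both treatments (edgeR adjusted p = 0.242 untreated and 0.288 after IFNG), and without KO1 the log2FC after IFNG was 0.39 (adjusted p = 0.00575).

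Of the iron storage, uptake and sensing genes, 17 of 22 were tested in pooled WT, with 3 higher and 4 lower (median log2FC -0.034), where 28.6% of all genes passed in either direction. Fbxl5, which targets the iron regulatory protein IRP2 for degradation, rose from 35.5 to 39.4 CPM in untreated WT clones to 122 to 149 CPM (log2FC 1.88 ± 0.059, edgeR adjusted p = 1.62e-15). Slc11a2 (DMT1), which carries ferrous iron out of the endosome after uptake through Tfrc, rose from 60.4 to 69.1 CPM to 126 to 161 CPM (log2FC 1.19 ± 0.069, adjusted p = 3.5e-11). Both also rose in pooled KO (1.71 and 1.05). Steap3, the endosomal ferrireductase, fell by 0.39 on the log2 scale (adjusted p = 4.44e-06) and Ncoa4, the cargo receptor for ferritin breakdown, by 0.36 (adjusted p = 8.58e-08). Thus of the endosomal uptake genes Tfrc, Slc11a2 and Steap3, the receptor and the transporter rose and the reductase fell in each clone. Ftl1 fell by 0.12 (adjusted p = 0.0227), and Fth1 had a log2FC of -0.14 (adjusted p = 0.0647) in pooled WT. Within single WT clones Fth1 passed in WT2 (-0.13, edgeR adjusted p = 0.00197) and WT3 (-0.15, adjusted p = 0.00661) but not in WT1 (-0.15, adjusted p = 0.131). Fth1 was lower in KO than in WT clones, by -0.43 ± 0.061 in untreated cells (adjusted p = 9.29e-05) and -0.33 ± 0.061 after IFNG (adjusted p = 0.000974), where Ftl1 had 0.051 and -0.0047. With counts summed per clone the Fth1 call was lost in both treatments (edgeR adjusted p = 0.336 untreated and 0.429 after IFNG), and after IFNG it was also lost without KO1 (-0.25, adjusted p = 0.0565).

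Of the haem transport and breakdown genes, 7 of 9 were tested, and 0 rose and 2 fell in pooled WT (median log2FC -0.039). They were Slc48a1 (HRG1), which moves haem out of the phagolysosome, with a log2FC of -0.33 (edgeR adjusted p = 0.0103), and Flvcr1, a haem exporter, with -0.26 (adjusted p = 2.24e-06). The fall of Hmox1 was thus accompanied by smaller falls of these 2 genes in all 5 clones, but not of Hmox2, the constitutive haem oxygenase, which passed in none.

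Of the NRF2 pathway genes, 9 of 10 were tested, with 3 higher and 5 lower in pooled WT (median log2FC -0.22), where 28.6% of all genes passed in either direction. Bach1, a repressor of Hmox1 and other antioxidant genes, rose from 70.4 to 77.3 CPM in untreated WT clones to 148 to 179 CPM after IFNG (log2FC 1.19 ± 0.059, edgeR adjusted p = 2.75e-12) and by 1.18 ± 0.052 in KO (adjusted p = 1.9e-10). Nfe2l2, which encodes NRF2 itself, fell in WT by 0.35 (SE 0.039, adjusted p = 5.26e-07), and in KO its log2FC was -0.12 ± 0.048 (adjusted p = 0.066). That difference between the genotypes passed the test (0.22 ± 0.054, adjusted p = 0.0357). Of the 10 genes of this list in that test, 1 was higher and 0 lower, where 1.02% of all genes passed. The log2FC of Nfe2l2 was -0.22 in WT1, -0.42 in WT2, -0.42 in WT3, -0.071 in KO1 and -0.17 in KO2. Within the KO clones it passed in KO2 (edgeR adjusted p = 0.0288) but not in KO1 (adjusted p = 0.359). The test counts the libraries of a clone as independent, and the Nfe2l2 response also differed among the 5 clones (clone by treatment, edgeR adjusted p = 0.00386). The Nfe2l2 call was lost without KO1 (0.18, edgeR adjusted p = 0.491), KO2 (0.25, adjusted p = 0.0576), WT2 (0.18, adjusted p = 0.343) or WT3 (0.18, adjusted p = 0.254), and WT1 and KO2 lay close together. The 2 subunits of glutamate cysteine ligase, the enzyme that starts glutathione synthesis, moved apart, with Gclm up by 0.67 (adjusted p = 0.0137) and Gclc at -0.68 (adjusted p = 5.48e-07). Slc7a11, the cystine transporter, had a log2FC of -0.46 (adjusted p = 0.000273) at 9.11 to 10.2 CPM in untreated WT clones.

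For each member, the 3 genes with the most similar profile were taken over the 10 clone and treatment groups, by Pearson's r of the mean log2(CPM + 0.5) among 12992 genes. The groups share clones and, within a clone, a genetic history, so r is a description. Hmox1 was closest to Zfp395 (r = 0.992), Nmt2 (0.991) and Gm45883 (0.985). Slc40a1 was closest to Itgb5 (0.981), Mfsd6 (0.979) and Disc1 (0.973), and Tfrc to Mcur1 (0.986), Rbbp6 (0.981) and Hprt (0.980). Cybb was closest to Dlat (0.988), Rpl14-ps1 (0.982) and Tcp1 (0.978), and Slc11a1 to Hap1 (0.986), Gm11992 (0.975) and Etv4 (0.960). Ncf4 was closest to Cd302 (0.982), Zfp106 (0.977) and Pphln1 (0.976), Ncf1 to Etl4 (0.966), Ctse (0.960) and 4930453N24Rik (0.9575), Rac2 to Dcun1d4 (0.960), Fblim1 (0.957) and Aes (0.957), and Cyba to Lamtor5 (0.961), Cyc1 (0.9465) and Minos1 (0.937). None of these nearest genes was itself a member. Among the members, Cybb and Slc40a1 had the strongest relation, r = -0.943, followed by Ncf1 and Hmox1 at r = -0.909 and Cybb and Cyba at 0.82.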

How the data were processed

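RNA was sequenced from 30 J774 libraries, 3 for each of 5 clones in 2 treatments. Per the study's methods, the authors removed adapters using BBDuk, mapped reads on mm10 using HISAT2 2.1.0, kept unique fragments with SAMtools 1.10, merged technical replicates and deposited raw counts of fragments per gene from featureCounts 1.6.2, with the exon length of each gene as a further deposited column. The methods name a RefSeq annotation and the table header Gencode vM18, with reverse-stranded counting in which a fragment over overlapping genes counts for each. Columns name clone and treatment but no replicate. WT2 and WT3 are named by other labels in the table of all libraries and were matched through the deposited tables of single clones. RNA input and adapter type varied per the labels but are not assigned to libraries, so no batch term could be built.

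The tests were edgeR's quasi-likelihood fits (edgeR 4.0.16 under R 4.3.3) after filterByExpr and TMM normalization, with Benjamini-Hochberg adjustment over all genes tested and a threshold of 0.05. Each SE was derived from the log2FC and its F statistic. Tests were within each clone, within pooled WT and KO, of KO against WT within each treatment, of response by genotype and by clone, and of levels among clones. For CPM, TMM factors came from the 14870 genes kept over all libraries. Members, lists and tests were chosen with earlier results of these data known. Named beyond the members were a fixed set of list genes, the checks, up to 2 genes per list and direction with the largest log2FC in pooled WT, and the 3 genes with the most similar profile per member. Some fits were first tested, with edgeR and DESeq2, on simulated counts in which 200 genes had been changed. They were the IFNG response in WT1 and in pooled WT, untreated KO against WT, and untreated clone levels. Response by genotype and response by clone were tested so as well. The other fits were not simulated, and the simulated clones did not differ apart from the changed genes. Some planned genes are not reported here. Promoters were RefSeq windows, and 0 columns of per-sample values were left unused. DESeq2 1.42.0, RLE normalization, other count filters, thinning, a single fit, clone as a block, sums per clone and leaving out libraries or clones were alternatives. Figures used Python 3.11.15 and matplotlib 3.10.9.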

Additional observations from a re-analysis of the deposited data

Results flagged for a closer look

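The IFNG response of Slc40a1 differed among the 5 clones in the test of clone by treatment over 30 libraries (edgeR adjusted p = 0.000157). Its log2FC was -0.68 in WT2, -0.75 in WT3 and -0.48 in KO2, against 0.13 in WT1 and -0.05 in KO1, the 2 clones with the lowest untreated level. Over the tests that left out a clone or 1 library of each group the edgeR adjusted p ran from 3.49e-05 to 0.0338. In WT2, WT3 and KO2 every IFNG library lay below every untreated one, as for 20.4% (KO2) to 24.4% (WT2) of all tested genes.

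The IFNG response of Hmox1 also differed among clones (edgeR adjusted p = 0.000961), although it fell in all 5, from -0.80 in WT1 to -1.23 in WT3. The call was lost without WT3 (adjusted p = 0.600) and on leaving out library a (0.0657) or library b (0.120) of each group, where the letters only name the 3 libraries of a group.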

How the results depend on the processing

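The counts of genes past the threshold moved most with how libraries of a clone were treated. In a single fit over all libraries, 4 members and 4026 genes passed for IFNG in WT1, and 7 members and 6571 genes in pooled WT. The same fit gave 6 members and 7143 genes for KO against WT in untreated cells, and 5 members and 7194 genes after IFNG. With clone as a block, 8 members and 6190 genes passed in pooled WT. With counts summed per clone, 6 members and 5322 genes passed in pooled WT, and 0 members and 1 gene passed for KO against WT in each treatment. DESeq2 called 1 member and 2659 genes in WT1. Without a count filter, 384 genes passed for response by genotype and 919 for response by clone.

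Leaving out 1 library moved the members called in WT1 from 1 (2520 genes in all) to 3 (3223 genes), without the IFNG libraries at 480 and 276 CPM of Tfrc respectively. As values near 0, the log2FC of Cyba moved from -0.11 to 0.034 in WT3 and from -0.022 to 0.11 in KO1. That of Slc40a1 moved from -0.16 to 0.16 in KO1. Leaving out 1 clone moved the members called from 2 to 6 in pooled WT (6 without WT1), from 0 (without KO1) to 4 (without WT1) for KO against WT in untreated cells, from 2 to 4 (without WT1) after IFNG and from 0 to 2 (without WT1, where Slc40a1 and Hmox1 passed) for response by genotype. The genes called went from 2684 (without WT3) to 5082 (without WT1) in pooled WT. For KO against WT they went from 1674 (without KO1) to 6472 (without WT1) in untreated cells, and from 1411 to 5992 after IFNG, with the same 2 clones. For response by genotype they went from 21 (without KO1) to 570 (without WT1). For response by clone, leaving out a clone or 1 library of each group gave 145 to 516 genes and 1 to 2 members. The log2FC of KO against WT ran from -0.15 to 0.012 for Ncf1, from -0.24 to 0.027 for Slc11a1 and from -0.43 to 0.0019 for Tfrc in untreated cells. After IFNG it ran from -0.057 to 0.050 for Ncf1, from -0.41 to 0.089 for Tfrc and from -0.17 to 0.29 for Hmox1. The difference in response between genotypes ran from -0.032 to 0.041 for Cyba, -0.016 to 0.060 for Rac2, -0.038 to 0.43 for Slc40a1 and -0.086 to 0.11 for Tfrc.

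Also near 0 and not past the threshold, KO against WT after IFNG changed sign for Ncf1 without a count filter (0.010) and with libraries thinned to the smallest (0.010), and for Hmox1 without a count filter (5.343e-05) and in the single fit (0.025). The causes of these shifts were not tested. The falls of Hmox1 in each clone and the differences in Slc40a1 response among clones passed under every alternative run. No paired analysis was possible because the columns of the count table carry no replicate numbers, so the planned fits with the replicate number as a block were not run. With 2 KO clones and 3 WT clones, the number of clones limits any statement on genotype, whereas 861 or more fragments per member and library leave counting error small.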
